A study of Homo sapiens with 8 samples.

Results

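The genes described here are 10 sensors of foreign nucleic acid, their adaptors and the transcription factors that act below them: RIGI, IFIH1, DHX58, TLR3, EIF2AK2, CGAS, MAVS, STING1, IRF3 and IRF7. They were taken by symbol from the 20165 rows of each count table, where 9 of the 10 had a row named for them. IFIH1 had none, and 1 unnamed row was assigned to it by its lengths, so its values stand apart below and are not counted with the others. CGAS had 2 to 8 counts per library and was too low to test, which left 8 tested genes.

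The libraries were rRNA-depleted RNA-seq of OVCAR3, an established ovarian cancer cell line, 2 in each of 4 groups. In the siControl and siTARG1 groups, cells received 30 nM of a control siRNA or one against OARD1, the gene of the ADP-ribosyl hydrolase TARG1, by transfection, and were harvested after 48 hours. In the RACK1-WT and RACK1-Mut groups, 1 µg/ml doxycycline (Dox) given for 48 hours knocked down endogenous RACK1, a protein of the small ribosomal subunit, in cells that re-express wild-type RACK1 or RACK1 mutated at its mono-ADP-ribosylation sites. The RACK1 cells carry integrated vectors and were selected with antibiotics, and the siRNA cells were not given Dox. The study's methods describe the replicates of sequencing experiments as independent biological samples, and the labels add nothing on how they were separated.

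Cells recognize viral RNA and DNA by where it lies and by marks that their own nucleic acids lack. In the cytosol the helicases RIG-I (RIGI) and MDA5 (IFIH1) bind double-stranded RNA and signal through MAVS on mitochondria, while cGAS (CGAS) binds DNA and makes a cyclic dinucleotide that activates STING (STING1) on the endoplasmic reticulum. Both routes lead to phosphorylation of IRF3 and IRF7, which induce interferons, and interferons in turn raise the transcription of many of these sensors.

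**Figure D1:**
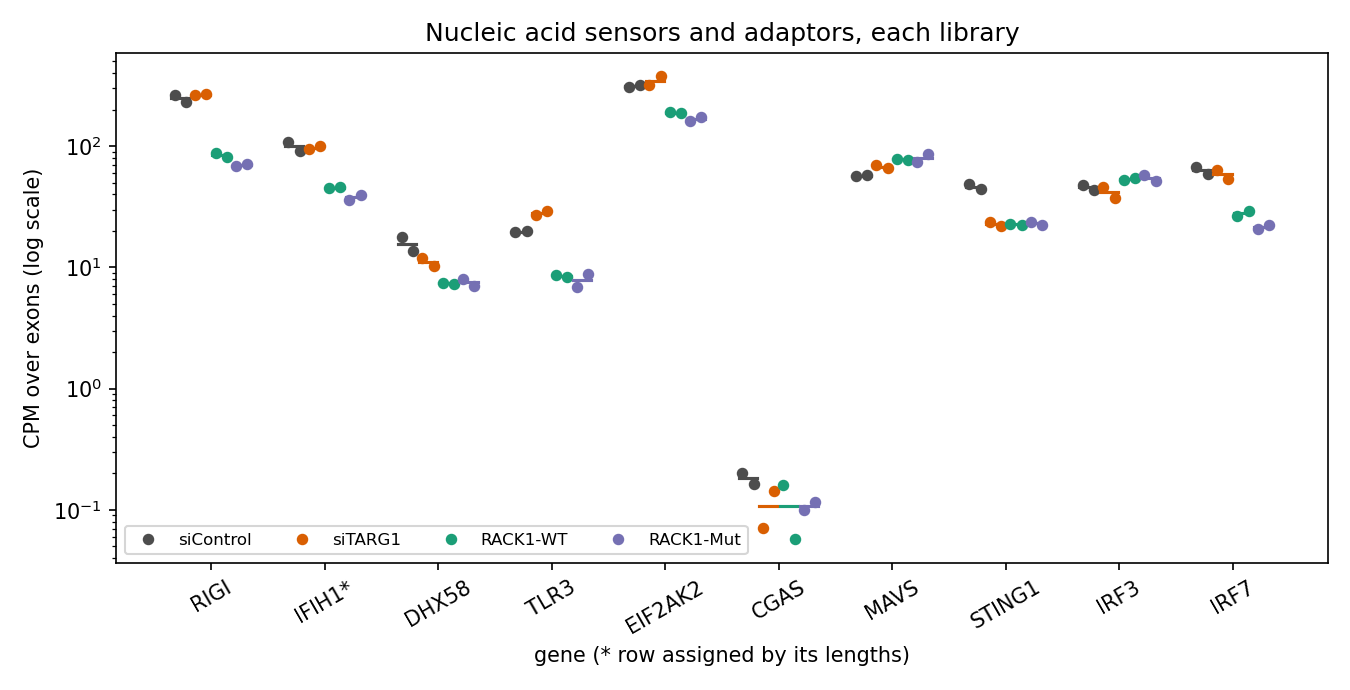
Level of each gene in each library, as CPM over exons on a log axis, with each point a library, each short line a group mean, and colour giving the group. RIGI, IFIH1, DHX58, TLR3, EIF2AK2 and IRF7 lie lower in the 4 RACK1 libraries than in the 4 siRNA libraries, STING1 is high in siControl alone, and CGAS is near 0.1 in every library.

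Exon counts summed to between 30989049 and 42668783 per library. The log2 levels of replicates correlated across genes at 0.9954 to 0.9964, a description only, since genes are not independent. The targeted gene OARD1 was at 3.54 CPM (counts scaled by library size) in siTARG1 against 50.3 in siControl, and RACK1 was at 1830 CPM in RACK1-WT and 1430 in RACK1-Mut against 4570 in siControl. All 10 epithelial and ovarian markers were detected, with summed levels of 2670 to 4320 CPM that were lowest in siTARG1, at 2670 and 2780 CPM. The 10 immune cell markers, 2 of them at 0 in every library (CD3E and MS4A1), summed to 6.52 to 10.4 CPM, and 7 fibroblast and endothelial markers to 10.1 to 13.3 CPM. Between RACK1-WT and siControl, 4 of 6 tested immune markers were higher and 1 lower (median log2 2.30). In every library 7 of the 10 immune markers were under 1 CPM, so this median includes low transcripts. Of 10 epithelial and ovarian markers, 6 were higher and 3 lower (median log2 0.55), against 31.9% higher and 31.4% lower over all genes. The part of these shifts in the results below was not tested, and in bulk RNA fewer cells with a transcript and less of it per cell cannot be told apart.

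Compared per length, as CPM per kilobase of exon, the sensors spanned a wide range of levels in siControl cells. RIGI was the highest at 57.3 ± 5.44 (SD, n = 2), followed by EIF2AK2 at 30.6 ± 0.842 and IRF7 at 29.5 ± 2.93. The IFIH1 row at 27.7 ± 3.37 and STING1 at 26.2 ± 1.57 came next, and from EIF2AK2 to STING1 each overlapped its neighbour between libraries. IRF3 was at 21.9 ± 1.67, and a gap separated it from DHX58 at 5.99 ± 1.12, MAVS at 4.88 ± 0.0846 and TLR3 at 3.27 ± 0.0593. CGAS stood far below the rest at 0.0572 ± 0.00825. The order depends on the region counted. Per kilobase of coding sequence 3 of the 10 kept their place, with EIF2AK2 the highest at 89.2, above RIGI at 75.5, and MAVS at 7.41 and TLR3 at 6.26 above DHX58 at 5.88.

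In RACK1-WT cells the order of levels per kilobase was different. IRF3 was the highest at 25.6 ± 0.677 CPM per kilobase (SD, n = 2), ahead of RIGI at 19.3 ± 1.05 and EIF2AK2 at 18.5 ± 0.0652. IRF7 at 13.1 ± 0.958, STING1 at 12.8 ± 0.0814 and the IFIH1 row at 12.6 ± 0.127 followed, and IRF7 overlapped STING1 and STING1 overlapped the IFIH1 row. MAVS at 6.65, DHX58 at 2.83 and TLR3 at 1.42 were again low, and CGAS was at 0.0339. Per kilobase of coding sequence 4 of the 10 kept their place in RACK1-WT, and EIF2AK2 was the highest at 41.1, above IRF3 at 34.9 and RIGI at 25.1. IRF3 was thus above RIGI by both measures in RACK1-WT and below it by both in siControl.

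Between siTARG1 and siControl, STING1 changed the most of the 8 tested genes. TLR3 and MAVS rose, STING1 and DHX58 fell, and RIGI, EIF2AK2, IRF3 and IRF7 did not pass the test. The 4 genes called compare with 46.6% of all 14024 genes tested, 23.5% called higher and 23.1% called lower, so the share of sensors that changed is near that of all genes. The median log2 fold change of the 8 was 0.00, against 0.01 over all genes.

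STING1 (ENSG00000184584, chromosome 5 of GRCh37 from 138855118 to 138862520, minus strand), the adaptor that relays the cyclic dinucleotide made by cGAS, was at 48.4 and 44.4 CPM in siControl and at 23.7 and 21.8 CPM in siTARG1. The groups did not overlap. The log2 fold change was -1.03 (SE 0.08), a level 2.04-fold lower in siTARG1, and the adjusted p was 3.3e-07 (edgeR, quasi-likelihood F test, Benjamini-Hochberg over every gene tested, as for each adjusted p here). It lay between -1.09 and -0.95 with any one library left out and passed the test each time. CGAS itself (ENSG00000164430, chromosome 6 from 74123238 to 74162020, minus strand) had 8 and 5 counts in siControl, 3 and 6 in siTARG1, 5 and 2 in RACK1-WT and 4 and 5 in RACK1-Mut, 38 in all. At this depth no difference in CGAS between groups was detectable, and no fold is given.

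TLR3 (ENSG00000164342, chromosome 4 from 186990065 to 187009227, plus strand), the receptor for double-stranded RNA in endosomes, was at 19.4 and 19.9 CPM in siControl and at 27.0 and 29.3 CPM in siTARG1. It was higher in both siTARG1 libraries, by 0.52 (SE 0.10) on the log2 scale, or 1.43-fold, with an adjusted p of 0.0011. TLR3 passed the test with each library left out, at 0.45 to 0.58.

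DHX58 (ENSG00000108771, chromosome 17 from 40253422 to 40264732, minus strand) encodes LGP2, a RIG-I-like helicase without the domains that bind MAVS, which tunes signalling by MDA5 and RIG-I. It was at 17.8 and 13.6 CPM in siControl and at 11.9 and 10.3 CPM in siTARG1. The log2 fold change was -0.50 (SE 0.13) with an adjusted p of 0.0056. The call rested on siControl replicate 1, without which the value was -0.28 with an adjusted p of 0.14.

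MAVS (ENSG00000088888, chromosome 20 from 3827446 to 3856770, plus strand), the adaptor that RIG-I and MDA5 share, was at 56.5 and 57.9 CPM in siControl and at 69.3 and 65.9 CPM in siTARG1. It was 1.18-fold higher (log2 0.24, SE 0.08, adjusted p of 0.024). The adjusted p was 0.16 over the coding sequence alone, and 0.09, 0.052 and 0.082 without siControl replicate 1, siControl replicate 2 and siTARG1 replicate 1.

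The cytosolic RNA helicases that signal through MAVS, and PKR, had overlapping levels. RIGI (ENSG00000107201, chromosome 9 from 32455300 to 32526206, minus strand) was at 266 and 233 CPM in siControl and at 262 and 271 CPM in siTARG1 (log2 0.10, SE 0.08, adjusted p of 0.32). The IFIH1 row was at 108 and 90.8 CPM in siControl and 94.9 and 99.7 CPM in siTARG1 (log2 -0.03, SE 0.08, adjusted p of 0.79). EIF2AK2 (ENSG00000055332, chromosome 2 from 37326353 to 37384665, minus strand), which encodes PKR, a kinase that stops translation when it binds double-stranded RNA, was at 309 and 321 CPM in siControl and 317 and 378 CPM in siTARG1. Its log2 fold change was 0.14 (SE 0.08, adjusted p of 0.17). Without siTARG1 replicate 1 it passed the test at 0.26, with an adjusted p of 0.011.

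The factors at the end of the pathway did not pass either. IRF3 (ENSG00000126456, chromosome 19 from 50162826 to 50169132, minus strand), present in resting cells and activated by phosphorylation, was at 48.1 and 43.2 CPM in siControl and 46.1 and 37.1 CPM in siTARG1 (log2 -0.13, SE 0.10, adjusted p of 0.3). Without siTARG1 replicate 1 it passed at -0.30, with an adjusted p of 0.02. IRF7 (ENSG00000185507, chromosome 11 from 612553 to 615983, minus strand), which interferon itself induces, had 67.6 and 58.7 CPM in siControl against 64 and 54 CPM in siTARG1 (log2 -0.10, SE 0.10, adjusted p of 0.43).

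Exons of some of these genes lie over those of neighbours in the annotation. The library kit was stranded, but the counting is not stated to use strand. IRF3 shares 734 of its 3794 annotated exon bases with BCL2L12, CGAS 180 of 4174 with DDX43 and EIF2AK2 35 of 11036 with GPATCH11, each on the opposite strand. RIGI shares 4471 of 10345 exon bases with an unnamed coding gene on its own strand. These bases are over all annotated exons, and the counted rows were shorter, at 4353 bases for RIGI and 2083 for IRF3. How many shared bases lie in the counted rows was not measured. Reads shared on 1 strand cannot be told apart, nor those on opposite strands if strand was not used.

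Between RACK1-Mut and RACK1-WT, none of the 8 genes passed the test, against 0.00713% of all genes, which is 1 gene. At an unadjusted p under 0.05 there were 2 of the 8, RIGI and IRF7, and 687 or 4.90% of all genes, and DESeq2 also called 0 of the 8. The median log2 fold change of the 8 was -0.05, against 0.00 over all genes. RACK1 RNA itself was at 1430 CPM in RACK1-Mut against 1830 in RACK1-WT (log2 -0.36, SE 0.08, adjusted p of 0.3). The mutation and the level of RACK1 cannot be told apart in this comparison.

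The lowest values in this comparison were those of IRF7 and RIGI. IRF7 was at 26.5 and 29.4 CPM in RACK1-WT and at 20.6 and 22.3 CPM in RACK1-Mut (log2 -0.38, SE 0.10, adjusted p of 0.58). When only the 4 RACK1 libraries were fitted the adjusted p of IRF7 was 0.034 at the same fold change. RIGI was at 87.4 and 81.0 CPM in RACK1-WT and at 69.0 and 71.7 CPM in RACK1-Mut (log2 -0.26, SE 0.08, adjusted p of 0.69).

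The IFIH1 row and EIF2AK2 were also lower in RACK1-Mut, and neither passed the test. The IFIH1 row was at 45.1 and 45.7 CPM against 36.1 and 39.7 CPM (log2 -0.26, SE 0.09, adjusted p of 0.86), and EIF2AK2 at 190 and 189 CPM against 162 and 175 CPM (log2 -0.17, SE 0.08, adjusted p of 1). The log2 fold changes of the other 5 were 0.02 for DHX58, -0.12 for TLR3, 0.04 for MAVS, and 0.03 for STING1 and for IRF3.

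The change in siTARG1 against siControl and that in RACK1-Mut against RACK1-WT were set against each other as a difference of log2 fold changes. STING1 differed by -1.06 (SE 0.12, adjusted p of 1.8e-05) and TLR3 by 0.64 (SE 0.16, adjusted p of 0.0077). RIGI differed by 0.35 (SE 0.11, adjusted p of 0.022), with a value above 0 in siTARG1 and below 0 in RACK1-Mut, neither past the test alone. These 3 of 8 compare with 32.4% of all genes. The RIGI call was lost over the coding sequence alone, with an adjusted p of 0.062, and without siControl replicate 2, RACK1-WT replicate 1, RACK1-Mut replicate 1 or RACK1-Mut replicate 2, with adjusted p-values of 0.1, 0.11, 0.087 and 0.051. DHX58 at -0.52 (adjusted p of 0.054) and EIF2AK2 at 0.31 (adjusted p of 0.053) lay just outside the threshold, and without siTARG1 replicate 1, where their adjusted p-values were 0.023 and 0.0032, 6 genes passed.

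**Figure D2:**
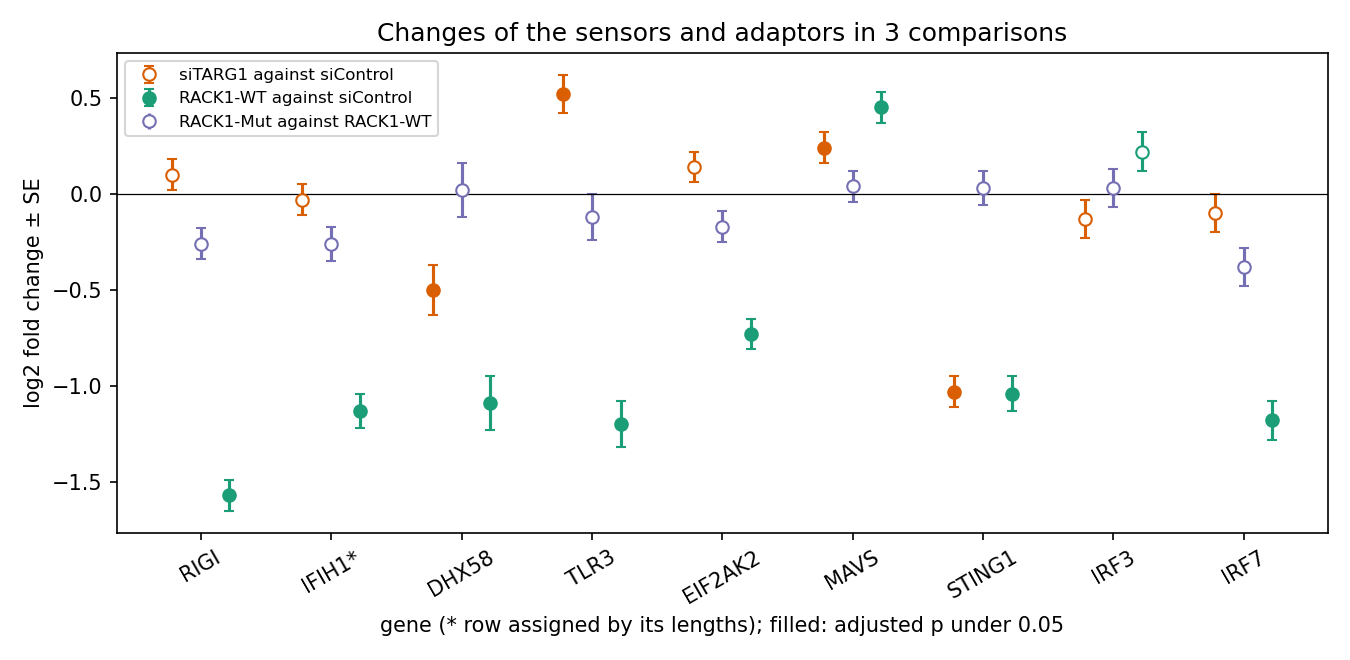
Log2 fold change with its standard error for each tested gene in 3 comparisons, filled where the adjusted p was under 0.05. In siTARG1 the changes run from -1.03 (STING1) to 0.52 (TLR3), none between RACK1-Mut and RACK1-WT is filled, and between RACK1-WT and siControl MAVS and IRF3 alone lie above 0.

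RACK1-WT cells were also set against siControl cells. That comparison crosses the 2 experiments, so RACK1 replacement, integrated vectors, antibiotic selection, Dox and siRNA transfection cannot be told apart in it, and it shares the siControl libraries with the siTARG1 comparison. RNA sensors, STING1 and IRF7 were lower in RACK1-WT and MAVS was higher. Of the 8 genes 7 passed the test, 6 lower and 1 higher, against 63.3% of all genes, 31.4% lower and 31.9% higher. The median log2 fold change of the 8 was -1.06, against -0.02 over all genes.

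Among the RNA sensors, RIGI was at 266 and 233 CPM in siControl and at 87.4 and 81.0 CPM in RACK1-WT, a log2 fold change of -1.57 (SE 0.08, adjusted p of 8.4e-10), or 2.96-fold lower. TLR3 was at 19.4 and 19.9 CPM against 8.71 and 8.37 CPM (log2 -1.20, SE 0.12, adjusted p of 7e-07). DHX58 was at 17.8 and 13.6 CPM against 7.49 and 7.33 CPM (log2 -1.09, SE 0.14, adjusted p of 9.9e-06). All of these groups were apart. The IFIH1 row was at 108 and 90.8 CPM in siControl and at 45.1 and 45.7 CPM in RACK1-WT (log2 -1.13, SE 0.09, adjusted p of 7.4e-08). EIF2AK2 was at 309 and 321 CPM in siControl against 190 and 189 CPM in RACK1-WT (log2 -0.73, SE 0.08, adjusted p of 3.3e-06), the smallest difference among the 5 RNA sensors over exons but not over the coding sequence, where it was -1.08 and that of DHX58 -1.04.

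The adaptors went in opposite directions. STING1 was at 22.7 and 22.5 CPM in RACK1-WT against 48.4 and 44.4 CPM in siControl (log2 -1.04, SE 0.09, adjusted p of 1.4e-07). These levels lie beside the 23.7 and 21.8 CPM of siTARG1 and the 23.9 and 22.3 CPM of RACK1-Mut, so siControl was the only group with a high level of STING1. MAVS was at 79.1 and 76.7 CPM in RACK1-WT against 56.5 and 57.9 CPM in siControl (log2 0.45, SE 0.08, adjusted p of 0.00027).

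The interferon regulatory factors differed from each other as well. IRF7 was at 26.5 and 29.4 CPM in RACK1-WT against 67.6 and 58.7 CPM in siControl (log2 -1.18, SE 0.10, adjusted p of 2.3e-07), or 2.26-fold lower. IRF3 was at 52.3 and 54.3 CPM against 48.1 and 43.2 CPM, without overlap, and did not pass the test (log2 0.22, SE 0.10, adjusted p of 0.067). It passed without siControl replicate 1, siTARG1 replicate 1 or siTARG1 replicate 2, with adjusted p-values of 0.039, 0.02 and 0.022, and when only the 4 libraries compared were fitted, with an adjusted p of 0.011, so that all 8 genes then passed.

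Across all 8 libraries, RIGI, DHX58, TLR3, EIF2AK2 and IRF7 were each higher in every siRNA library than in every RACK1 library, an arrangement found in 26.6% of all genes tested. RIGI was at 233 to 271 CPM in the siRNA libraries and 69.0 to 87.4 CPM in the RACK1 libraries, and IRF7 at 54.0 to 67.6 CPM and 20.6 to 29.4 CPM. MAVS, at 56.5 to 69.3 CPM and 73.8 to 86.0 CPM, and IRF3, at 37.1 to 48.1 CPM and 51.6 to 57.6 CPM, had the opposite arrangement. The share of all genes with that opposite arrangement is not given here. STING1 and CGAS overlapped.

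The deposited RPKM scale each library by all its alignments, and the median gene was 0.43 higher on the log2 scale between RACK1-WT and siControl in RPKM than in CPM, and 0.11 higher between siTARG1 and siControl. The RPKM of RIGI in RACK1-WT were 0.453 of those in siControl, of TLR3 0.586, of IRF7 0.591, of DHX58 0.631, of STING1 0.654 and of EIF2AK2 0.813, all still lower. MAVS and IRF3 were 1.84 and 1.57 times as high. Between siTARG1 and siControl the ratio of IRF7, which did not pass the test, turned from 0.933 in CPM to 1.01 in RPKM.

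Reads over the 3′ untranslated region and the coding sequence were counted apart, and 4 tested genes have a 3′ region of at least 1000 bases. In EIF2AK2, whose 3′ region of 8063 bases is far longer than its coding sequence of 1656 bases, reads per base of the 3′ region were 0.224 and 0.225 of those over the coding sequence in siControl. That ratio was 0.277 and 0.27 in siTARG1, 0.359 and 0.354 in RACK1-WT and 0.361 and 0.364 in RACK1-Mut, so the siRNA groups were apart from each other and from the RACK1 lines. Coding-sequence reads of EIF2AK2 in RACK1-WT were 0.461 of their siControl level and 3′ reads 0.733. Counted over the coding sequence alone, the log2 fold change was -1.08 (adjusted p of 7.1e-08) in place of -0.73. From siControl to RACK1-WT the ratio of EIF2AK2 rose 1.59-fold, against a median of 1.04-fold over 7112 tested genes with such a 3′ region, and 4.05% of them had a larger rise.

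The ratio also differed between groups in the other long transcripts, and in RIGI, MAVS and TLR3 too it was higher in siTARG1 than in siControl. The change of this ratio over all genes with such a 3′ region was taken for RACK1-WT against siControl alone. Whether the ratio also rose over those genes in siTARG1 was not examined, so the rise cannot be called particular to these transcripts. RIGI was at 0.37 and 0.372 in siControl, 0.459 and 0.498 in siTARG1, 0.427 and 0.381 in RACK1-WT and 0.369 and 0.376 in RACK1-Mut. MAVS, with a 3′ region of 9963 bases, went from 0.608 and 0.606 in siControl to 0.704 and 0.705 in RACK1-WT, with siTARG1 and RACK1-Mut between. TLR3 was at 0.132 and 0.125 in siControl and at 0.152 to 0.22 in the other 6 libraries. The ratios themselves were not tested.

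**Figure D3:**
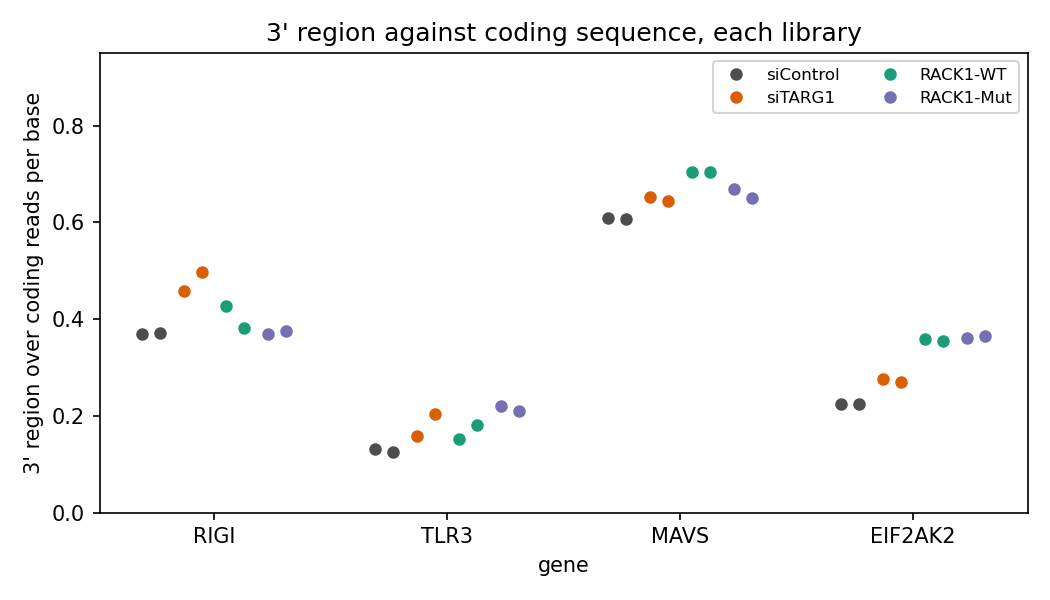
Reads per base of the 3′ untranslated region divided by reads per base of the coding sequence, for the 4 tested genes with a 3′ region of at least 1000 bases, each point a library coloured by group. EIF2AK2 rises from about 0.22 in siControl to 0.27 in siTARG1 and 0.36 in the RACK1 lines.

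Interferon-regulated promoters often hold the interferon-stimulated response element, in which pairs of GAAA repeats are bound by IRF proteins. RefSeq promoters (GRCh38.p14, from 250 bases before to 50 after the start) were at hand for RIGI, IFIH1, TLR3, MAVS and EIF2AK2, and were searched on both strands for GAAANNGAAA. The motif was in 3 of these 5 and in 3.57% of 35116 promoters. It is shown in capitals, read along the gene's own strand, for the genes that hold it. Whether it bears on the levels above was not tested. In IFIH1 it lay from 159 to 144 bases before the start, as 2 overlapping matches on the opposite strand, and from 21 to 12 before it. In TLR3 it ran from 4 bases before the start to base 6 after it, on the opposite strand, and in EIF2AK2 from 6 before to base 4 after. Placed as chr2:162318821-162318850, chr2:162318686-162318715, chr4:186069142-186069171 and chr2:37156967-37156996, the sequences are:
IFIH1, upstream: aattcgcTTTCCTTTTCTGTTTCccgcggt
IFIH1, near the start: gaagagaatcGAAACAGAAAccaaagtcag
TLR3: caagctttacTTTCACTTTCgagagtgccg
EIF2AK2: agtccaagggGAAAACGAAActgagaacca
RIGI, the lowest of all in log2 fold change between RACK1-WT and siControl, and MAVS hold no such letters in this window. DHX58, CGAS, STING1, IRF3 and IRF7 had no promoter there.

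Other genes of the pathway were read from lists. Interferon ligands were barely transcribed in any group. IFNB1 had 2 to 5 counts per library and 24 in all, IFNL2 had 17, IFNL3 18 and IFNA1 1 in all, and IFNA2, IFNW1 and IFNK had 0. IFNL1 and IFNE were tested, and IFNL1 did not pass. The exception was IFNE, an interferon of epithelia of the reproductive tract, at 2.43 and 1.80 CPM in siControl and 0.804 and 0.981 CPM in siTARG1 (log2 -1.26, SE 0.24, adjusted p of 0.00062). It was at 0.858 and 0.968 CPM in RACK1-WT and 0.839 and 1.05 CPM in RACK1-Mut, so IFNE, like STING1, was high in siControl alone.

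Of 23 tested partners that carry the signal from the sensors, 5 were higher and 2 lower in siTARG1, or 30.4% against 46.6% of all genes, with a median log2 fold change of 0.02. TRAF3, a ubiquitin ligase between MAVS and the kinases, was at 48.8 and 46.5 CPM in siControl and 81.0 and 72.9 CPM in siTARG1 (log2 0.69, adjusted p of 5.8e-06). TBK1, the kinase that phosphorylates IRF3, rose by 0.26 (adjusted p of 0.021), and TANK, a scaffold of TBK1, fell by 0.23 (adjusted p of 0.03). NFKB1 was higher by 0.42 and CASP8 lower by 0.33 on the same scale. In RACK1-WT against siControl 4 were higher and 9 lower, or 56.5% against 63.3% of all genes. The mitofusins MFN2 and MFN1, outer mitochondrial membrane proteins like MAVS, were higher by 0.81 and 0.76, and TRIM25, a ubiquitin ligase that promotes RIG-I signalling, was at 205 and 174 CPM in siControl and 117 and 118 CPM in RACK1-WT (log2 -0.69).

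Of 22 tested other sensors and co-factors, 8 rose and 4 fell in siTARG1, or 54.5% against 46.6% of all genes, with a median of 0.12. IFI16, a DNA sensor that works with STING, was at 0.577 and 0.491 CPM in siControl and at 2.91 and 2.85 CPM in siTARG1 (log2 2.41, SE 0.23, adjusted p of 1.4e-06). ZBP1, a sensor of Z-form nucleic acids, was at 0.955 and 0.621 CPM in siControl and 2.51 and 1.73 CPM in siTARG1 (log2 1.39, SE 0.27, adjusted p of 0.00067). Both are low transcripts. The helicase DDX3X, at 329 and 334 CPM against 229 and 251 CPM, fell by 0.47.

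In RACK1-WT against siControl, 3 of the same 22 were higher and 11 lower, with a median of -0.40. The 63.6% called is near the 63.3% of all genes, and 31.4% of all genes were lower. OAS3, which makes the 2-5A messenger that activates RNase L, was at 144 and 120 CPM in siControl and 65.3 and 68.6 CPM in RACK1-WT (log2 -0.98). NLRP1, an inflammasome sensor of double-stranded RNA, had 0 counts in each siControl library, 1 and 0 in siTARG1, 27 and 18 in RACK1-WT and 23 and 16 in RACK1-Mut. Against a floor of 3 counts over both siControl libraries it was at least 16.1-fold higher in RACK1-WT. TLR8 and AIM2 had 0 counts in every library, TLR7 20 and TLR9 9 in all.

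Of 19 tested limiters of sensing, 4 rose and 2 fell in siTARG1, or 31.6% against 46.6% of all genes, with a median of 0.05. TRIM38 was higher by 0.56 and TNFAIP3, a deubiquitinase that restrains NF-κB, by 0.41. ADAR, which edits double-stranded RNA so that MDA5 does not bind it, was at 691 and 616 CPM in siControl and 572 and 531 CPM in siTARG1 (log2 -0.25, adjusted p of 0.023), and the RNA helicase SKIC2 fell by 0.57. In RACK1-WT 2 were higher and 10 lower, or 63.2% against 63.3% of all genes, among them ADAR at 377 and 382 CPM (log2 -0.78), and USP18, which blunts signalling by the interferon receptor, at 27.9 and 29.2 CPM against 82.2 and 70.7 CPM (log2 -1.42). TREX1, the exonuclease that removes cytosolic DNA, had 33 counts over all libraries.

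Of 14 tested interferon receptors and signal transducers, 2 rose and 5 fell in siTARG1, or 50% against 46.6% of all genes, with a median of -0.09. IFNAR1, a chain of the type I interferon receptor, was at 81.7 and 82.2 CPM in siControl and 52.3 and 57.8 CPM in siTARG1 (log2 -0.57, adjusted p of 1.8e-05), and IFNGR2 of the interferon gamma receptor fell by 0.64. In RACK1-WT 3 were higher and 7 lower than in siControl, or 71.4% against 63.3% of all genes. IFNGR2 was at 131 and 134 CPM in siControl and 58.8 and 61.9 CPM in RACK1-WT (log2 -1.13, adjusted p of 4.9e-09). JAK1 was higher, at 162 and 158 CPM in siControl and 279 and 281 CPM in RACK1-WT (log2 0.81), as was the row that joins IFNAR2 and IL10RB (log2 0.64).

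Interferon-stimulated genes and targets of IRF3 in siTARG1 were 9 higher and 5 lower of 33 tested, or 42.4% against 46.6% of all genes, with a median of 0.13. BST2, which tethers budding virus, was at 87.7 and 69.3 CPM in siControl and 35.6 and 33.5 CPM in siTARG1 (log2 -1.19, adjusted p of 4.1e-07), and IFI27 was higher by 0.88. In RACK1-WT against siControl 23 were lower and 5 higher, or 84.8% called against 63.3% of all genes, with a median of -1.08. Between RACK1-Mut and RACK1-WT 0 of the 33 passed, with a median of -0.38, and in the difference of effects 17 were higher and 1 lower, or 54.5% against 32.4% of all genes, with a median of 0.50. IFIT1, which binds viral RNA ends, was at 567 and 488 CPM in siControl and 139 and 117 CPM in RACK1-WT (log2 -2.04, adjusted p of 3e-10). Higher in RACK1-WT than in siControl were CXCL11 by 2.12, CXCL10 by 0.74 and UBA7 by 0.64 on the log2 scale. CXCL11 was a low transcript, at 0.226 and 0.392 CPM in siControl and 1.56 and 1.08 CPM in RACK1-WT.

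EIF2AK2 belongs to 4 kinases that phosphorylate the initiation factor eIF2α. In siTARG1, EIF2AK4, the sensor of amino acid shortage, alone of the 4 passed, at 127 and 124 CPM against 75.3 and 76.2 CPM (log2 0.73, SE 0.07, adjusted p of 9.7e-07). In RACK1-WT against siControl, EIF2AK2 alone was lower, while EIF2AK3, the sensor of endoplasmic reticulum stress, was higher at 46.4 and 47.9 CPM against 34.2 and 34.9 CPM (log2 0.45, adjusted p of 0.0001). EIF2AK4 was higher by 0.17 (adjusted p of 0.038), and EIF2AK1, activated by heme shortage, was at -0.06 (adjusted p of 0.41). Between RACK1-Mut and RACK1-WT, 0 of the 117 tested genes of these 7 lists passed edgeR's test. Its unadjusted p was under 0.05 in 27 of the 117 and in 4.90% of all genes. DESeq2, which called 17 genes or 0.104% of all, called 8 of the 117, all interferon-stimulated and lower in RACK1-Mut. They were IFI6, IFI44, IFI44L, IFIT1, IFIT3, TRIM22, MX1 and HERC6, named after their values were seen. Their log2 fold changes ran from -0.49 (MX1) to -0.37 (IFI6) in DESeq2. The lists were chosen with earlier results of these data known, and genes are not independent. The shares of the 117 are thus not a test of the lists.

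**Figure D4:**
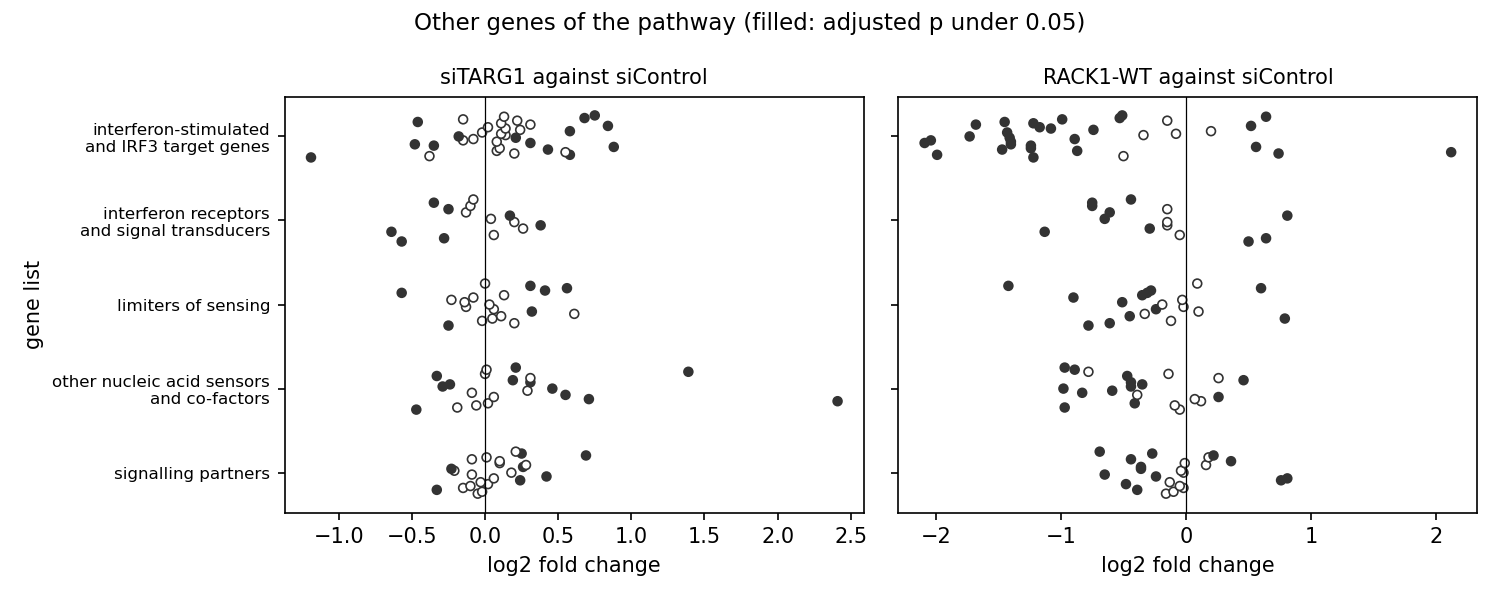
Log2 fold changes of the tested genes of 5 lists, each point a gene, filled where the adjusted p was under 0.05, in siTARG1 against siControl (left) and RACK1-WT against siControl (right). On the right 23 of 33 interferon-stimulated genes are filled below 0 and 5 above it, against 31.4% and 31.9% of all genes. NLRP1, with 0 counts in siControl, is left out.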

How the data were processed

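RNA-seq libraries of 8 OVCAR3 samples were analysed, and the genes and lists were chosen with earlier results of these data known. The authors removed rRNA reads with Bowtie 1.1.2, aligned the rest to GRCh37 and Gencode 24 transcripts with TopHat2 2.1.1, and counted with Plastid. The deposited values are estimated counts over exons, coding sequence and 3′ region, not normalized, and the authors' RPKM. Reads matching many places were kept, so counts of paralogs are uncertain.

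Rows were named from Gencode 44 on GRCh37, where 94.7% of 36595 transcript names matched. Unmatched rows held 1.19% of counts. IFIH1 was assigned, after the data were seen, the 1 unnamed row whose lengths matched it within 20 bases (coding length 3078 in both). The same rule matched 364 known rows with coding sequences of at least 3000 bases, 98.63% of them to their own gene.

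Counts were rounded, normalized by TMM (factors 0.971 to 1.02), filtered with filterByExpr and tested with edgeR 4.0.16 (R 4.3.3) as 4 group means, with 4 residual degrees of freedom, Benjamini-Hochberg adjustment over 14024 genes and a threshold of 0.05. CPM are counts scaled by the TMM-normalized library size. SE was taken as the size of the log2 fold change over the square root of F. Genes named are the 10 and, of each list, those called where 5 or fewer were, otherwise from the 3 highest and 3 lowest. Alternatives were DESeq2 1.42.0 (named by the authors), RLE, other filters, coding-sequence reads, the libraries of a comparison alone, a replicate block, rows summed by symbol, and each library left out. The test was checked on simulated counts, drawn with the same dispersion for every gene and without dependence between genes. That check does not cover genes that vary more or vary together. Precision is limited by 2 libraries per group. Other samples of the study were not analysed here. The result of one item is not reported here.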

Additional observations from a re-analysis of the deposited data

Results flagged for a closer look

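The change in siTARG1 against siControl and that in RACK1-Mut against RACK1-WT differed for STING1, TLR3 and RIGI, in a test of the difference itself. STING1 was at -1.06 on the log2 scale, lower in both siTARG1 libraries, and TLR3 at 0.64, higher in both siTARG1 libraries. RIGI was at 0.35, a difference that did not pass with coding-sequence reads or without any one of 4 libraries.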

How the results depend on the processing

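Results under an alternative numbered 567 for the 8 genes and, counted here with them, the IFIH1 row. Of these, 527 kept their direction and side of the threshold, 19 passed newly, 10 no longer passed and 11 changed sign. The number of genes called lay between 2 (without siControl replicate 1) and 5 for siTARG1 against siControl and between 2 and 6 for the difference of effects with a library left out, where 5 passed without a filter on low counts and 5 with the replicate block. The labels do not say whether same-numbered libraries were handled together, and the main test did not pair them. Deviations of same-numbered libraries correlated over genes at 0.26 between siControl and siTARG1 and 0.03 between RACK1-WT and RACK1-Mut. Across the 2 experiments they correlated at -0.1 to -0.03. These values do not settle whether the samples are paired. The block also brought IRF3 past the threshold between RACK1-WT and siControl (0.23, adjusted p of 0.034), so that all 8 genes passed. With only the RACK1 libraries 1 gene was called between RACK1-Mut and RACK1-WT. Sign changes were all in genes not called. With a library left out, siTARG1 values ran from -0.14 to 0.11 for the IFIH1 row, -0.30 to 0.00 for IRF3 and -0.23 to 0.02 for IRF7, and RACK1-Mut values from -0.07 to 0.11 for DHX58, -0.32 to 0.05 for TLR3, -0.08 to 0.14 for MAVS, -0.02 to 0.08 for STING1 and -0.05 to 0.11 for IRF3. STING1 was at -0.04 with coding-sequence reads. The cause was not tested.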
